A study of Homo sapiens with 6 samples.

Results

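The cadherins are cell surface proteins that bind one another between neighbouring cells through repeated extracellular domains that need calcium. Here 101 genes of this superfamily were followed among the 57773 genes of an RNA sequencing table, chosen by name: 23 classical and other CDH genes, 16 genes of the protocadherin alpha cluster, 18 of the beta cluster, 21 of the gamma cluster, 12 non-clustered protocadherins, 8 genes of the FAT, DCHS and CELSR families and 3 calsyntenins. The names PCDHGB8P and PCDHB19P, which end in P, were left out. The rule uses names and no measured values.

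The cells were HEK293, an established line from human embryonic kidney, in 2 groups of 3 libraries each. The genotype label of one group names a knockdown of TRDMT1, a methyltransferase that places m5C, a methylated cytosine, in certain tRNAs, and that of the other reads Control. The sources used here do not name the agent of the knockdown, and they do not say whether the cells were a single clone or whether replicates were grown apart. All libraries came from total RNA depleted of ribosomal RNA, and the protocol of every sample includes a bisulfite kit for RNA methylation.

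TRDMT1 itself went against the labels. Libraries labelled knockdown gave 221, 225 and 245 counts of it and those labelled control 99, 93 and 80, which is 0.58, 0.58 and 0.58 against 0.36, 0.36 and 0.28 RPKM (counts per exonic length and library total), and its log2 fold change was 0.61 ± 0.21 (SE, adjusted p = 0.0705, edgeR). The groups are therefore named as labelled, and each direction below is the libraries labelled knockdown against the libraries labelled control. The table's column names also suit the opposite grouping from the titles. Whether the labels were exchanged was not tested, and if they were, every rise and fall below would turn round. The libraries labelled knockdown held 36455950 to 40088993 counts and those labelled control 24776040 to 26802182. Control replicate 2 stood apart: across genes it correlated with control replicates 1 and 3 at 0.963 and 0.951, against 0.989 between those, and processed pseudogenes took 2.51% of its counts, where the other libraries had 0.895% to 1.16%. The mitochondrial genome took 6.09%, 6.02% and 5.69% of the total in knockdown-labelled libraries and 4.62%, 4.26% and 5.27% in control-labelled ones, without overlap, and its part in the results was not tested. Control replicate 2 was the lowest of the 6 libraries in 33 of the 48 cadherin genes tested. The 7 marker genes of HEK293 were all detected, with a summed level of 2570 to 2650 CPM (counts scaled to a common library total) in the libraries labelled knockdown and 3020 to 3480 in those labelled control, while of 4 blood cell markers CD14 had 48, 46 and 63 against 44, 30 and 45 counts (−0.30 ± 0.21, adjusted p = 0.323, edgeR) and PTPRC, CD3E and HBB at most 2 counts in a library.

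Classical cadherins hold adherens junctions together and are tied to the actin cytoskeleton through catenins. Protocadherins lack the catenin-binding tail, and those of the 3 clusters are known from neurons, where each cell uses a few of many alternative first exons as an identity label. In the alpha and gamma clusters, each variable exon has a promoter of its own and is spliced to constant exons that the cluster's genes share. Many of these promoters carry a conserved element around the letters CGCT, and CTCF and cohesin bind the promoters and enhancers of the clusters. The FAT and DCHS proteins and the CELSR receptors are very large cadherins of tissue growth control and planar cell polarity, and calsyntenins link cargo to kinesin motors.

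Promoter sequences of 75 of the 101 members, 94 entries in all, were found in the RefSeq table of build GRCh38.p14, which covers 250 bases before to 50 bases after each start. They are shown for the clusters because promoters of genes with and without counts carried the letters CGCT, in words that were not the same in every cluster. In each line the letters CGCT are in capitals, within 15 bases on either side, on the plus strand of chromosome 5. The first set is of the alpha cluster, for which every library had 0 counts.
PCDHA1: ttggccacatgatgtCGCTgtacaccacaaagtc
PCDHA4: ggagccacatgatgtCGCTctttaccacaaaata
PCDHA8: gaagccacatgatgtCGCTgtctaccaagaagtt
PCDHA12: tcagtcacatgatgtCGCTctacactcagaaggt
The next set is of the beta cluster, which had at most 4 counts per gene and library.
PCDHB2: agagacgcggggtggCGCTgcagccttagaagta
PCDHB5: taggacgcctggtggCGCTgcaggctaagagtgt
PCDHB9: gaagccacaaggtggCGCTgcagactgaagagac
PCDHB15: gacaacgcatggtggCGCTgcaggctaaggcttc
The last set is of the gamma cluster, whose genes were all detected. It ends with PCDHGA11 and PCDHGC3, which carried most of its counts, and PCDHGC4, which held 1.91% to 4.88% of them in a library.
PCDHGA1: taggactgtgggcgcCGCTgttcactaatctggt
PCDHGA4: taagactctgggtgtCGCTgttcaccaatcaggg
PCDHGA9: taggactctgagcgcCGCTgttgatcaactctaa
PCDHGB1: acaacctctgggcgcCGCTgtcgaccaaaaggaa
PCDHGA11: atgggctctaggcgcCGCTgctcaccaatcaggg
PCDHGC4: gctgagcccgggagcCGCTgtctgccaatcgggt
PCDHGC3: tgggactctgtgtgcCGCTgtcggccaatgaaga

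The word TGTCGCT, searched on both strands, was in 10 of 13 alpha promoters (76.9%) in 1 of 14 beta promoters, in 3 of 23 gamma promoter entries (13%) and in 1.76% of all 35116 promoters of the table. The word GGTGGCGCT was in 13 of 14 beta promoters (92.9%) and in 0.501% of all promoters, and in no promoter entry of the alpha or gamma genes. The word GNCGCTGT was in 18 of 23 gamma promoter entries (78.3%), in 5 of 13 alpha promoters (38.5%), in 1 of 14 beta promoters and in 4.35% of all promoters. These words overlap one another at CGCT, which alone was in 70% of all promoters. They were set by hand for the clusters, so that their shares there are descriptive and were not tested. In PCDHGC3, the most abundant gamma gene, CGCT occurred 5 times on the gene's strand in the 250 bases before the start (chr5:141475716-141475965, plus strand), shown here with each copy in capitals.
PCDHGC3: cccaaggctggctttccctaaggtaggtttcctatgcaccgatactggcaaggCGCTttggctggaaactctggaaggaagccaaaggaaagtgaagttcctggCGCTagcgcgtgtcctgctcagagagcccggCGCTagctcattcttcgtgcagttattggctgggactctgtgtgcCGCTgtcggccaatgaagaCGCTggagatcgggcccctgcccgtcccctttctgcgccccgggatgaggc

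Of the 101 genes, 48 passed the filter on low counts and were tested, and 53 were not. Of these 53, 27 had 0 counts in all 6 libraries, and the highest single count was 18. A count of 0 allows up to 3 counts, which is 0.0748 to 0.0823 CPM in the libraries labelled knockdown and 0.112 to 0.121 in those labelled control, counting error only. The classical cadherin CDH5 of endothelium (1, 1 and 0 counts against 0, 0 and 0) and the kidney cadherin CDH16 (0, 1 and 0 against 0, 1 and 1) were at this limit.

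In 26 genes the mean of a group reached 1 RPKM. Levels are compared between genes in RPKM, the authors' unit per exonic length. In the libraries labelled control the order began with CDH2 at 31.0 ± 9.60 RPKM (SD, n = 3) and CLSTN1 at 30.4 ± 9.61. Next came CDH24 (8.58 ± 2.22), CELSR2 (8.05 ± 5.06), FAT1 (7.53 ± 3.96), CLSTN3 (6.99 ± 2.75) and CELSR1 (6.61 ± 3.69). Within these 2 sets neighbours did not differ beyond their spread. In the libraries labelled knockdown CLSTN1 (45.9 ± 1.44) and CDH2 (44.0 ± 0.37) again led, followed by CELSR2 (15.8 ± 0.82) and FAT1 (13.5 ± 1.38).

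**Figure D1:**
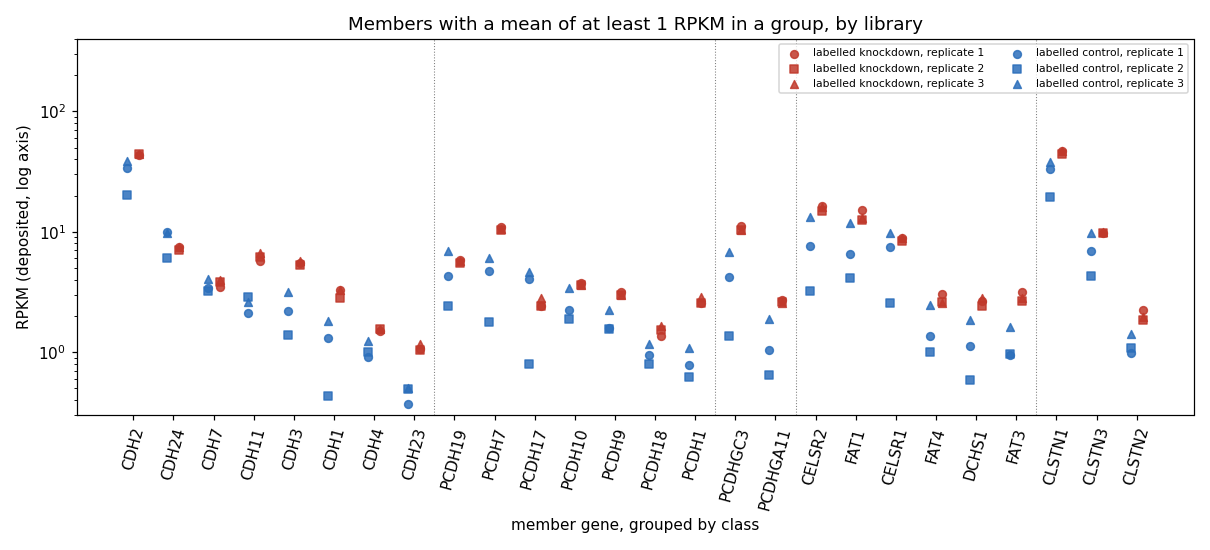
Deposited RPKM on a log axis for the tested members whose mean reached 1 RPKM in either group, 1 point per library, ordered by class and then by the mean of the libraries labelled control. CDH2 and CLSTN1 stand at 19.57 RPKM or more in all 6 libraries, and control replicate 2 (blue square) is often the lowest point.

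Between the groups, 11 of the 48 tested genes were higher in the libraries labelled knockdown at an adjusted p under 0.05 (edgeR, adjusted over all 17805 genes tested) and 0 were lower. Over all tested genes 9.29% were higher and 14.7% were lower. CDH8 and CDH15 passed the filter only through the libraries labelled knockdown, so they could differ in no other direction, and without them 9 of 46 were higher. At an unadjusted p under 0.05 there were 23 higher and 2 lower, where 16.7% and 22.6% of all tested genes were, and DESeq2 called 17 higher (13.8% of all tested genes) and 1 lower (18.5%), CDH20. Without CDH8 and CDH15, 21 were higher at an unadjusted p under 0.05 (edgeR) and 15 by DESeq2, and the median log2 fold change was 0.47. With both, the median of the 48 genes was 0.52, against −0.04 over all tested genes. Of the 48, both included, 39 were above 0, as were 47.3% of all tested genes. Scaled by the library total alone, the medians were 0.67 and 0.13. In bulk RNA, fewer cells with a transcript and less of it per cell cannot be told apart.

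All 101 genes together made up 0.1824%, 0.1705% and 0.1787% of all counts in knockdown-labelled libraries, and 0.1087%, 0.064% and 0.1493% in control-labelled ones. The groups did not overlap, and control replicate 2 was the lowest. In CPM after TMM scaling, 27 of the 48 genes had all libraries labelled knockdown above all labelled control and 2 had the reverse, where 23.9% and 26% of all tested genes did. CDH8 and CDH15 are among the 27.

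**Figure D2:**
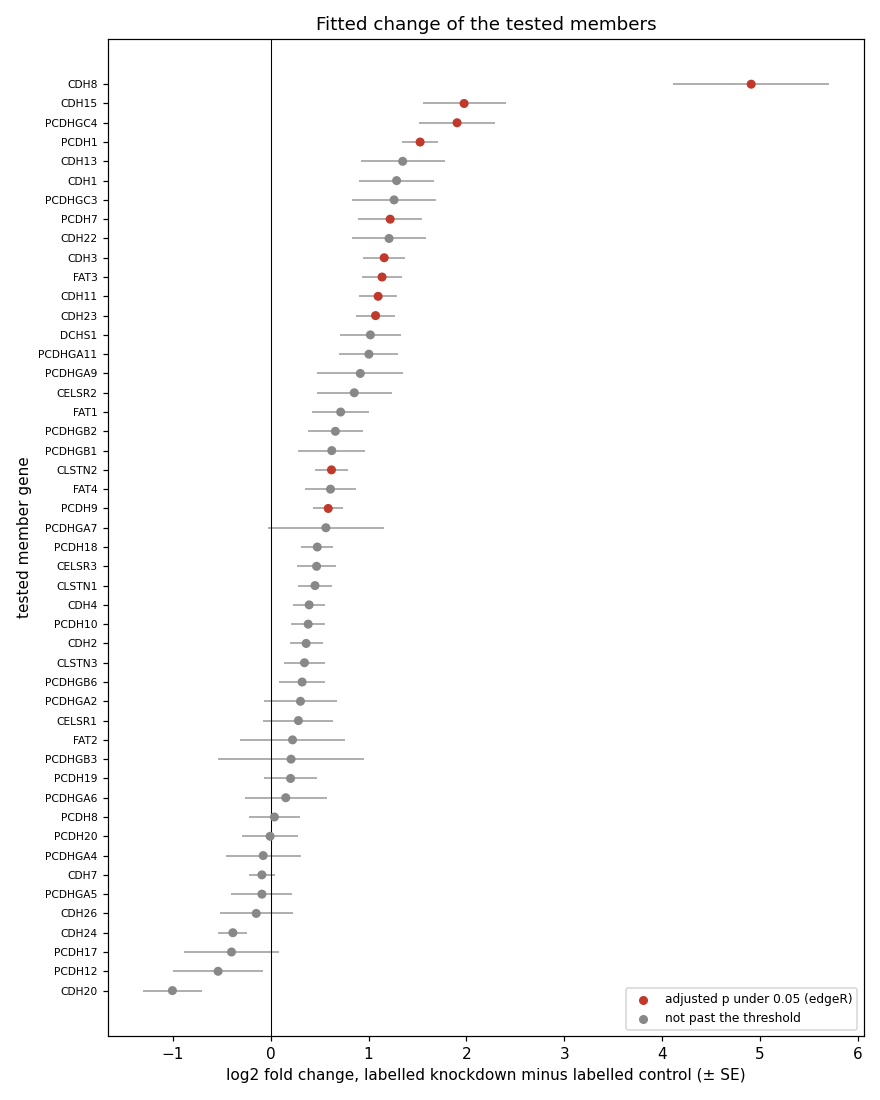
Log2 fold change (libraries labelled knockdown minus labelled control) of the 48 tested members, with bars of 1 SE from edgeR and red for an adjusted p under 0.05. The 11 red points lie between 0.59 (PCDH9) and 4.91 (CDH8), and no member below 0 passed the threshold.

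Among the classical and other CDH genes, 5 of 14 tested genes rose, where 9.29% of all tested genes did. The 5 include CDH8 and CDH15, which passed the filter only through the libraries labelled knockdown and could differ in no other direction. The rest did not pass the test, and the median log2 fold change of the 14, with CDH8 and CDH15 included, was 1.08. CDH8, a type II cadherin of the nervous system (ENSG00000150394, chromosome 16), counted 99, 88 and 76 reads in the knockdown-labelled libraries and 0, 5 and 0 in the control-labelled ones. The groups were far apart, and control replicate 2 held all of the control counts. Summed over libraries this is 263 against 5 counts, a ratio of 36.2 per library total (95% interval 15.3 to 113, counting error only), and without control replicate 2 the mean of the libraries labelled knockdown was at least 20.7-fold higher than the controls' mean floor of 3 counts per library. The fitted log2 fold change was 4.91 ± 0.80 (adjusted p = 0.00717, edgeR), a value that depends on the prior count. At 0.173 ± 0.031 RPKM (SD, n = 3) in the libraries labelled knockdown, CDH8 ranked 40 of the 48 tested genes per exonic length.

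CDH11, a type II cadherin of mesenchyme and bone (ENSG00000140937, chromosome 16), stood at 5.75, 6.20 and 6.68 RPKM against 2.12, 2.85 and 2.63. It rose by a log2 fold change of 1.10 ± 0.20 (adjusted p = 0.0103, edgeR), with no overlap and with control replicate 1, not 2, as the lowest library. CDH3, the P-cadherin of epithelial basal layers (ENSG00000062038, chromosome 16), stood at 5.54, 5.34 and 5.76 RPKM against 2.19, 1.40 and 3.15 and rose by 1.16 ± 0.22 (adjusted p = 0.0113). CDH23, which forms the tip links of inner ear hair cells (ENSG00000107736, chromosome 10), stood at 1.07, 1.04 and 1.17 against 0.37, 0.49 and 0.50 RPKM and rose by 1.07 ± 0.20 (adjusted p = 0.0107). CDH15, the M-cadherin of muscle (ENSG00000129910, chromosome 16), had 25, 33 and 27 counts against 2, 5 and 6 and rose by 1.98 ± 0.42 (adjusted p = 0.0178). In each of these genes, named for passing the test, the libraries labelled knockdown lay close together and above every library labelled control. In CPM after TMM scaling, 10 of the 14 tested CDH genes were higher without overlap and 2 lower. Over all tested genes 23.9% and 26% were.

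CDH1 and CDH2, the E- and N-cadherins of epithelium and of neural and mesenchymal tissue, did not pass the threshold. CDH1 stood at 3.27, 2.82 and 3.31 RPKM against 1.31, 0.43 and 1.81, a log2 fold change of 1.29 ± 0.39 (adjusted p = 0.0516, edgeR). Its groups did not overlap, and control replicate 2 was lowest. Of the 17 other settings tried, CDH1 was called higher in 8, among them DESeq2 (1.31, adjusted p = 0.00627), and CDH2 in 1. CDH2 stood at 43.66, 44.10 and 44.39 RPKM against 34.09, 20.22 and 38.64, with 0.36 ± 0.17 (adjusted p = 0.157). CDH2 thus exceeded CDH1 in RPKM in every library. CDH24, which binds catenins as a type II cadherin, had the lower values in the libraries labelled knockdown once scaled by TMM. It stood at 7.43, 7.0 and 7.44 RPKM against 9.90, 6.01 and 9.82, where control replicate 2 lies below and the other controls above, and its log2 fold change was −0.39 ± 0.15 (adjusted p = 0.0987).

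CDH7 was at 3.50, 3.83 and 4.01 RPKM against 3.42, 3.25 and 4.03, overlapping between groups (−0.09 ± 0.13, adjusted p = 0.638, edgeR), and its sign turned under other settings. CDH4, the R-cadherin, had 0.39 ± 0.17 (adjusted p = 0.126). The remaining tested genes of this class, CDH13, CDH20, CDH22 and CDH26, were under 1 RPKM on average in both groups, with log2 fold changes from −1.01 (CDH20, adjusted p = 0.0525) to 1.35 (CDH13, adjusted p = 0.0611).

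Among the FAT, DCHS and CELSR genes, 1 of 8 rose, where 9.29% of all tested genes did. The median log2 fold change of the 8 was 0.66. FAT3 (ENSG00000165323, chromosome 11), a giant cadherin of neuronal shape, stood at 3.14, 2.68 and 2.82 RPKM against 0.94, 0.96 and 1.62 and rose by 1.14 ± 0.20 (adjusted p = 0.0099, edgeR). Its groups did not overlap. FAT1, the family member known for control of cell growth and motility, stood at 15.07, 12.41 and 13.08 RPKM against 6.58, 4.13 and 11.87 (0.71 ± 0.29, adjusted p = 0.119). Control replicate 3 lay just below the lowest library labelled knockdown, and the groups did not overlap.

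DCHS1, the ligand of FAT4, stood at 2.67, 2.44 and 2.83 RPKM against 1.13, 0.59 and 1.86 (1.02 ± 0.31, adjusted p = 0.0539, edgeR), and FAT4 itself had 0.61 ± 0.26 (adjusted p = 0.127). CELSR2, an adhesion receptor of planar polarity, stood at 16.36, 14.81 and 16.07 RPKM against 7.65, 3.21 and 13.30 (0.85 ± 0.38, adjusted p = 0.143). CELSR1, its relative, was at 8.94, 8.33 and 8.86 RPKM against 7.43, 2.57 and 9.82 (0.28 ± 0.36, adjusted p = 0.589), and its groups overlapped. Its value turned below 0 without control replicate 2 (−0.05) and with trends of base composition and length removed (−0.12). In FAT1, CELSR1, CELSR2 and DCHS1 control replicate 2 was the lowest and control replicate 3 the highest control library. CELSR3 and FAT2 were under 1 RPKM on average in both groups.

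Among the non-clustered protocadherins, 3 of 10 tested genes rose, where 9.29% of all tested genes did. The median log2 fold change of the 10 was 0.29. PCDH1 (ENSG00000156453, chromosome 5), a protocadherin of airway epithelium, stood at 2.57, 2.58 and 2.86 RPKM against 0.78, 0.62 and 1.09. It rose by a log2 fold change of 1.53 ± 0.18 (adjusted p = 0.00226, edgeR), 2.88-fold, with the smallest adjusted p of all members. PCDH1 and CDH8 were called in each of the 17 other settings tried, all on these same libraries. CDH8 passed the main filter only through the libraries labelled knockdown, so that its calls are no separate support. The promoters of both genes follow as the 250 bases before the start in the sense of the gene. PCDH1 (chr5:141869628-141869877, minus strand) comes first and then CDH8 (chr16:62036439-62036688, minus strand). The E-box CACCTG or its reverse complement CAGGTG, the word that SNAI and ZEB repressors bind, is in capitals where found.
PCDH1: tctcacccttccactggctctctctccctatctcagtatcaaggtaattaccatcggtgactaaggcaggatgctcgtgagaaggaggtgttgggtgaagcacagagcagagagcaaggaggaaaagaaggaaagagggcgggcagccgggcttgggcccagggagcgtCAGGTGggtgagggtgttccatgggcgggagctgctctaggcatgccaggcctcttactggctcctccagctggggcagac
CDH8: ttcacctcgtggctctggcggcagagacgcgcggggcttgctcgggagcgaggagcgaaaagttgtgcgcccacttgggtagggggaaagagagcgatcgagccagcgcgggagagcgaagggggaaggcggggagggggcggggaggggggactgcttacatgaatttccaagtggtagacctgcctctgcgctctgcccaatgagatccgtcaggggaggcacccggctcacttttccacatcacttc
The E-box was found 1 time in PCDH1 and 0 times in CDH8. On either strand, 10 of the 94 member promoter entries (10.6%) and 20.6% of all promoters in the table held it.

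PCDH7 (ENSG00000169851, chromosome 4) stood at 10.89, 10.39 and 10.51 RPKM against 4.72, 1.78 and 6.05 and rose by 1.22 ± 0.33 (adjusted p = 0.0363, edgeR). It was the most abundant non-clustered protocadherin of the libraries labelled knockdown, and its libraries labelled control ranged widely. PCDH9 (ENSG00000184226, chromosome 13), a protocadherin of the brain, stood at 3.15, 2.99 and 2.98 RPKM against 1.58, 1.57 and 2.25 and rose by 0.59 ± 0.16 (adjusted p = 0.0346).

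PCDH19, in which mutations cause an epilepsy, stood at 5.85, 5.50 and 5.70 RPKM against 4.25, 2.43 and 6.86 (0.20 ± 0.27, adjusted p = 0.613, edgeR), and its groups overlapped. PCDH10, which recruits the WAVE actin regulators, was at 3.73, 3.64 and 3.61 RPKM against 2.26, 1.89 and 3.40 (0.38 ± 0.17, adjusted p = 0.15). PCDH18 had 0.48 ± 0.16 (adjusted p = 0.0738) and PCDH17 −0.40 ± 0.49 (adjusted p = 0.573). PCDH17 showed how far control replicate 2 could lie from its group, with 2.44, 2.44 and 2.80 RPKM against 4.02, 0.79 and 4.63. PCDH8, PCDH12 and PCDH20 were tested under 1 RPKM, with log2 fold changes from −0.54 (PCDH12) to 0.04 (PCDH8).

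The 3 clusters on chromosome 5 differed in whether they were detected at all. All 16 alpha genes had 0 counts in all 6 libraries. Of the 18 beta genes, which have no constant exons, 10 had 0 counts everywhere and the others at most 4 in a library. All 21 gamma genes had counts, summing to 2869, 2694 and 2949 in the libraries labelled knockdown and 889, 331 and 1409 in those labelled control, which is 78.7, 73.3 and 73.6 against 33.6, 13.4 and 52.6 CPM of the library total. The groups did not overlap in this sum, and control replicate 2 was lowest in all 13 gamma genes tested.

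**Figure D3:**
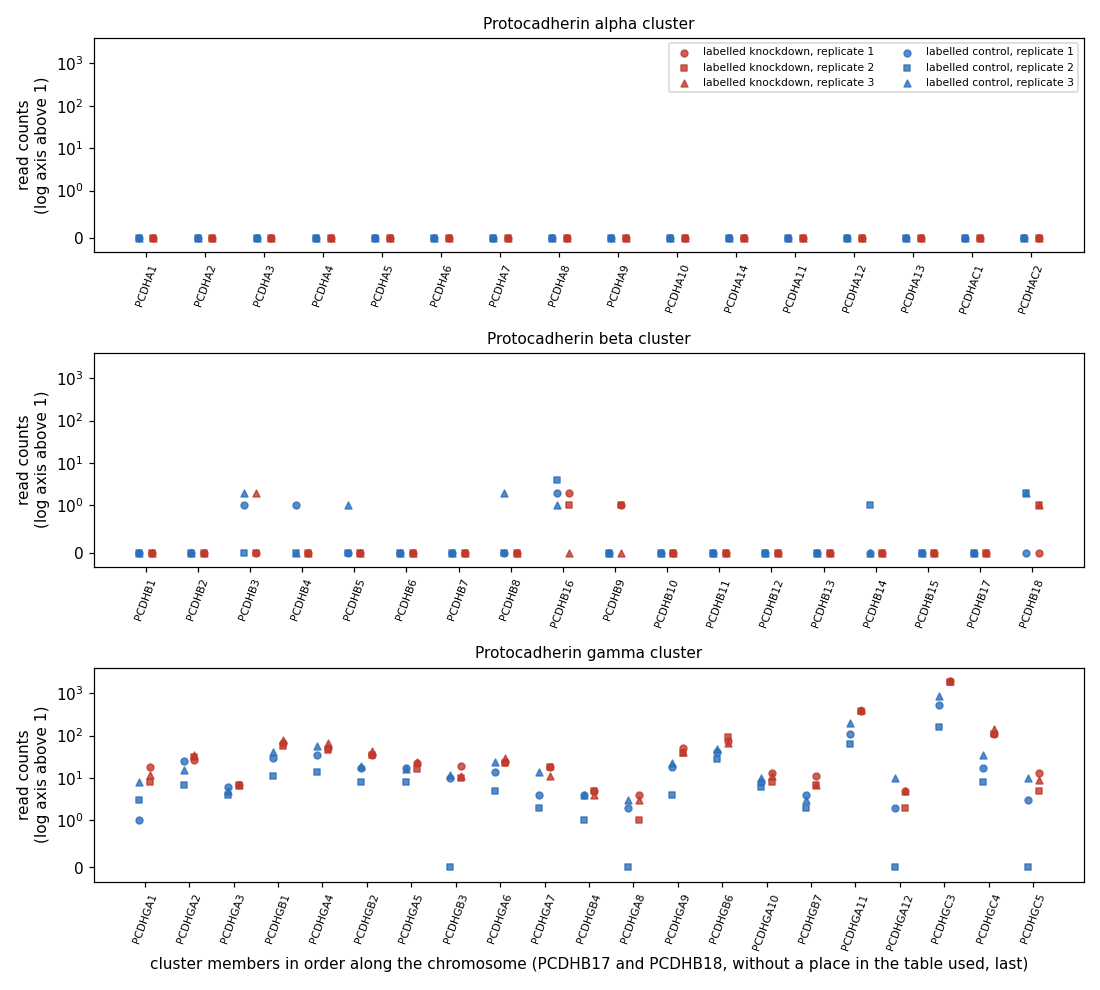
Read counts per library of the alpha, beta and gamma protocadherins in their order along chromosome 5 (linear from 0 to 1, log above), red for the libraries labelled knockdown and blue for those labelled control. The alpha genes are at 0 throughout, the beta genes at 4 or below, and PCDHGC3, PCDHGA11 and PCDHGC4 rise above the rest of the gamma cluster in the libraries labelled knockdown.

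Of the 13 tested gamma genes 1, PCDHGC4, passed the threshold, where 9.29% of all tested genes rose. PCDHGC4 (ENSG00000242419, chromosome 5), one of the C-type genes at the end of the cluster, had 107, 107 and 144 counts against 17, 8 and 35. It rose by a log2 fold change of 1.90 ± 0.39 (adjusted p = 0.0149, edgeR). PCDHGC3, another C-type gene, had 1914, 1800 and 1939 counts against 523, 157 and 854, or 11.14, 10.40 and 10.27 against 4.19, 1.35 and 6.76 RPKM (1.26 ± 0.43, adjusted p = 0.074). PCDHGA11, of the A subfamily, had 388, 381 and 403 counts against 108, 63 and 200 (1.0 ± 0.30, adjusted p = 0.0517). All 3 genes, chosen for an unadjusted p under 0.05 (edgeR), were higher in every library labelled knockdown than in any labelled control. In CPM after TMM scaling, 5 of the 13 tested gamma genes were so, where 23.9% of all tested genes were.

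PCDHGC4, PCDHGC3 and PCDHGA11 are the 3 gamma genes with an unadjusted p under 0.05 (edgeR) and were set apart. The other 18 gamma genes had 0 to 92 counts in a library. Of these 18, 10 were tested, with 0 called by edgeR, DESeq2 or limma. That 0 passed in edgeR, also at an unadjusted p under 0.05, follows from this cut and is no result about these genes. Log2 fold changes of the 10 ran from −0.09 to 0.92. Of the gamma counts PCDHGC3 held 66.7%, 66.8% and 65.8% of them in the libraries labelled knockdown and 58.8%, 47.4% and 60.6% in those labelled control, without overlap. The 95% Wilson intervals ran from 64.0% to 68.6% over the former libraries and from 42.1% to 63.1% over the latter, counting error only. PCDHGC4 held 3.73% to 4.88% against 1.91% to 2.48%, with intervals that overlap between groups (3.1% to 4.49% in knockdown replicate 1, 1.23% to 4.7% in control replicate 2). PCDHGA11 held 13.5%, 14.1% and 13.7% against 12.1%, 19.0% and 14.2%, which overlap. These differences in share were not tested. By GENCODE 29, 27.6% to 64.4% of the exonic bases of a gamma gene lie in exons shared with other gamma genes, and the sources used here do not say how reads in shared exons were counted, so that the division of counts among gamma genes, and the zeros of the alpha genes for their constant exons, are uncertain.

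Of the calsyntenins, CLSTN2 rose. CLSTN2 (ENSG00000158258, chromosome 3), a synaptic calsyntenin, stood at 2.24, 1.86 and 1.94 RPKM against 0.98, 1.08 and 1.42, a log2 fold change of 0.62 ± 0.17 (adjusted p = 0.0395, edgeR). CLSTN1, the kinesin adaptor, stood at 46.59, 44.29 and 46.94 RPKM against 33.51, 19.57 and 37.99 (0.45 ± 0.17, adjusted p = 0.101), without overlap. CLSTN3 stood at 9.70, 9.79 and 9.89 RPKM against 6.87, 4.31 and 9.80 (0.34 ± 0.21, adjusted p = 0.264), and control replicate 3 reached the libraries labelled knockdown.

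Chromosome 16 carried 6 of the tested genes and 4 of the 11 that rose: CDH8, CDH11, CDH3 and CDH15. CDH1 and CDH13 are the others, and the median of the 6 was 1.32. Without CDH8 and CDH15, which passed the filter only through the libraries labelled knockdown, 2 of 4 rose, with a median of 1.22. Over all 825 tested genes of this chromosome, 37.9% were higher and the median was 0.54, so that these cadherins lay on a chromosome that was higher as a whole. CDH8, CDH11 and CDH5 follow one another among its protein-coding genes, as do CDH3 and CDH1. CDH5 stayed at 0 or 1 count beside CDH11. Off chromosome 16, 7 of 42 tested members rose, with a median of 0.42, where 7.9% of all 16980 tested genes rose and the median was −0.07. The part of the chromosome in these values was not tested.

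**Figure D4:**
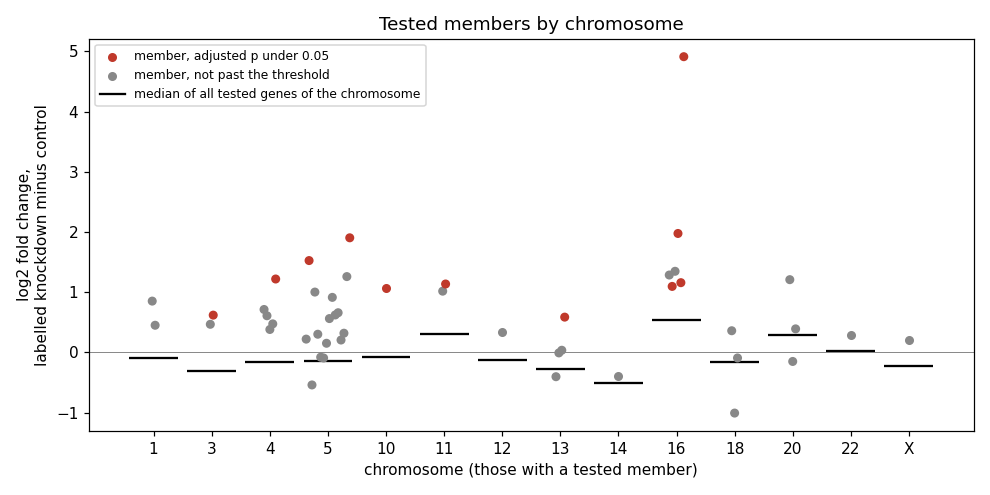
Log2 fold change of the tested members by chromosome, red for an adjusted p under 0.05 (edgeR), with a black line at the median of all tested genes of that chromosome. The line is highest on chromosome 16 (0.54), where 4 of 6 members are red, and lies at −0.145 on chromosome 5 with its 16 tested members.

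Base composition also moved with the fold changes of all genes, whose median rose from −0.52 among the genes poorest in G and C (27.8% to 41.3%) to 0.26 among the richest (58.3% to 78.8%), in 5 classes of equal size. The tested members had medians of 0.48, 0.85, 0.26, 0.45 and 0.85 in the same classes, each above that of all genes. With trends of base composition and length removed, 16 members were called, 14 higher and 2 lower, against 9.04% and 11.1% of all tested genes. CDH23 (0.55, adjusted p = 0.226, edgeR) and CLSTN2 (0.42, adjusted p = 0.156) were lost, CDH24 (−0.71, adjusted p = 0.0209) and CDH20 (−1.05, adjusted p = 0.0448) were called lower, and the other 9 stayed called. CDH7 turned from −0.09 to 0.80 and was called higher (adjusted p = 0.0139).

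Partners of the cadherins did not share one direction. Over all tested genes 9.29% rose and 14.7% fell, the shares to set beside each list of partners and regulators below. Of 19 tested adhesion partners 3 rose and 1 fell, with a median of −0.04, the same as over all genes. The nectins PVRL1 (1.20 ± 0.24, adjusted p = 0.0144, edgeR) and PVRL4 (0.96 ± 0.18, adjusted p = 0.0103) and the p120 catenin CTNND1, which holds cadherins at the membrane (0.60 ± 0.15, adjusted p = 0.0258), rose. The alpha-catenin relative CTNNAL1 fell (−1.21 ± 0.15, adjusted p = 0.00271). Of 12 genes for cadherin processing and shedding none rose and 2 fell, while 3 were higher at an unadjusted p under 0.05 and 3 by DESeq2. The 2 that fell were ADAM10, the protease that sheds E- and N-cadherin (3.43, 3.54 and 3.46 RPKM against 6.66, 5.0 and 7.59, log2 fold change −1.04 ± 0.12, adjusted p = 0.00213), and the gamma-secretase subunit APH1A (−1.03 ± 0.17, adjusted p = 0.00717).

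Of 14 repressors of CDH1, 3 rose and 3 fell, with a median of 0.14, where 9.29% and 14.7% of all tested genes did. ZEB1 fell most, at 0.45, 0.50 and 0.57 RPKM against 2.63, 1.62 and 3.35 (log2 fold change −2.46 ± 0.22, adjusted p = 0.000859, edgeR). SNAI2 (−0.82 ± 0.24, adjusted p = 0.0482) and TCF4 (−0.67 ± 0.14, adjusted p = 0.0148) also fell. KLF8 (2.60 ± 0.55, adjusted p = 0.0174), SNAI1 (1.06 ± 0.31, adjusted p = 0.0469) and SNAI3 (1.27 ± 0.23, adjusted p = 0.01) rose. KLF8 had few reads, with 62, 63 and 69 counts against 1, 10 and 8. With composition and length trends removed, 2 were higher and 1 lower: SNAI1 (0.92, adjusted p = 0.0917, edgeR), SNAI2 (−0.43, adjusted p = 0.144) and TCF4 (−0.27, adjusted p = 0.188) lost their calls, and ZEB1 (−1.75, adjusted p = 0.00145) did not. CDH1 itself, as given above, missed the threshold in the main fit and was called higher in 8 of the 17 other settings.

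Of 15 regulators of the protocadherin clusters 2 rose and 8 fell, with a median of −0.60, where 9.29% and 14.7% of all tested genes did. Scaled by the library total alone 1 rose and 4 fell, with a median of −0.45, where 10.6% and 9.26% did. The cohesin subunit SMC3 fell from 49.92, 36.16 and 48.32 RPKM in the libraries labelled control to 5.98, 6.54 and 6.36 in those labelled knockdown (log2 fold change −3.0 ± 0.12, adjusted p = 0.000106, edgeR). The cohesin loader NIPBL (−2.56 ± 0.16, adjusted p = 0.000311) and the cohesin-associated PDS5B (−1.89 ± 0.13, adjusted p = 0.000367) fell too. All of these, named for the smallest p, were lower in every library labelled knockdown than in any labelled control. Over all tested genes 26% were so in CPM after TMM scaling. CTCF, which binds the boxed promoters, rose by 0.40 ± 0.11 (adjusted p = 0.0371) and the loader partner MAU2 by 0.56 ± 0.15 (adjusted p = 0.0354). With base composition and length trends removed, 1 rose and 6 fell, where 9.04% and 11.1% of all tested genes did. SMC3 (−1.84), NIPBL (−1.73), PDS5B (−1.11) and CTCF (0.45) were still called. MAU2 (0.17, adjusted p = 0.203, edgeR), the cohesin subunit RAD21 (−0.14, adjusted p = 0.461) and SMCHD1 (−0.67, adjusted p = 0.0536) lost their calls. The cohesin subunit SMC1A was not called before this removal (−0.43 ± 0.23, adjusted p = 0.218).

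Of 16 planar polarity partners 3 rose and 1 fell, with a median of 0.10: PRICKLE1 (0.43 ± 0.12), PRICKLE4 (0.51 ± 0.15) and VANGL2 (0.54 ± 0.15), core polarity proteins, rose with adjusted p of 0.0356 to 0.0436, and ANKRD6 (−0.51 ± 0.11, adjusted p = 0.0196, edgeR) fell. Of 14 protocadherin effectors the receptor tyrosine kinase RET, itself a cadherin-like protein, rose (1.25 ± 0.30, adjusted p = 0.0262), and the WAVE subunit NCKAP1 fell (−0.92 ± 0.24, adjusted p = 0.0327). Of 10 calsyntenin partners none rose, with 2 higher at an unadjusted p under 0.05 and 2 by DESeq2, and 3 fell: the kinesin light chain KLC1 (−0.53 ± 0.11, adjusted p = 0.0144) and the heavy chains KIF5B (−1.58 ± 0.32, adjusted p = 0.015) and KIF5A (−0.79 ± 0.20, adjusted p = 0.0284). With composition and length trends removed, calls were lost by KIF5B (−0.78, adjusted p = 0.0793, edgeR), RET (0.97, adjusted p = 0.0821), PRICKLE4 (0.25, adjusted p = 0.172) and VANGL2 (0.32, adjusted p = 0.0971), and 1 planar polarity partner was higher and 2 were lower.

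The count of members called moved with each library left out. Without knockdown replicate 1, 2 or 3 it was 3, 3 and 2, where 6.99%, 7.37% and 6.67% of all tested genes were called in either direction. Without control replicate 1 it was 7 (11% of all genes) and without control replicate 3 it was 22 (29.2%). Without control replicate 2 it was 24, with 21 members higher and 3 lower, where 22.9% and 25.6% of all genes were. The 3 lower were CDH24 (−0.50, adjusted p = 0.00101, edgeR), CDH20 (−0.82, adjusted p = 0.0395) and PCDH17 (−0.82, adjusted p = 0.000161). All 11 members called with every library were also called without control replicate 2 and without control replicate 3. CDH3, CLSTN2, PCDH7, PCDH9 and PCDHGC4 were not called without control replicate 1, and CDH15, CDH23, CDH3, CLSTN2, PCDH7, PCDH9 and PCDHGC4 lost their call whichever of the 3 libraries labelled knockdown was left out, which leaves a smaller design. Their fold changes moved little: CDH3 had 1.14 to 1.19 (adjusted p = 0.0509 to 0.0596, edgeR), against 1.16 with every library, and CLSTN2 0.54 to 0.68 (adjusted p = 0.105 to 0.154), against 0.62.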

How the data were processed

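RNA of HEK293 cells was sequenced in 6 libraries, 3 labelled knockdown and 3 labelled control. The deposited table gives read counts per gene, which were not normalized, and RPKM, which equalled the count divided by the deposited exonic length and by the library total within 0.006 for 100% of values. Per the submitters' processing notes, HTSeq 0.6.1, StringTie 1, DESeq2 1.6.3, DESeq 1.18.0, edgeR 3.4.6 and bcl2fastq 2.17.1.14 belong to the authors' pipeline on genome build hg19, and the notes state no role for any. The strand setting of the counting and the part of the bisulfite step in these libraries are unknown from the sources used here. Columns were tied to samples by the second name in each sample's description, which reads the other way round from its title.

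The test over all genes was that of edgeR 4.0.16 (R 4.3.3) on counts, using its quasi-likelihood test, TMM scaling, filterByExpr and robust estimation, and Benjamini-Hochberg adjustment over 17805 genes and a threshold of 0.05. Fold changes are log2 values ± SE. Totals per library were 24776040 to 40088993 counts. The labels do not say that replicates were separate cultures, so the p-values rest on a spread between samples that may be technical only. Members were matched by name (names ending in P dropped). Every member past the threshold, or tested and reaching a mean of 1 RPKM in a group, is named, and from each gene list up to 3 called genes per direction with the smallest p. Members and lists were chosen with earlier results of these data known. Base composition, chromosome and shared exons came from GENCODE 29, matched for 97.2% of tested genes, and promoters from the RefSeq table, build GRCh38.p14. Alternatives were DESeq2 1.42.0, limma 3.58.1 on log2(RPKM + 1) and log2(RPKM + 0.1), other scalings and filters, composition and length offsets (mgcv 1.9.3), leaving out each library and a replicate block.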

Additional observations from a re-analysis of the deposited data

How the results depend on the processing

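Over 17 alternatives, the 29 named members gave 492 comparisons, of which 482 kept their direction, 39 lost a call and 49 gained one, with CDH7 in 2 of them after a change of sign. Of all genes 4267 were called, 1654 higher and 2613 lower, and 1975 with the replicate block joined to composition and length offsets. Scaled by the library total alone the split was 1888 higher and 1649 lower, and by limma on log2(RPKM + 1) 2299 and 1527. DESeq2 called 18 members against 11. Leaving out 1 library gave 2 to 24 members and 1191 to 9063 genes called. CDH7 turned above 0 by library total (0.084), by composition and length offsets (0.80, adjusted p = 0.0139, edgeR), by these with the replicate block (0.81, adjusted p = 0.0374) and by limma on log2(RPKM + 1) (0.068) and log2(RPKM + 0.1) (0.085). CELSR1 turned below 0 with the offsets (−0.12), with offsets and block (−0.068) and without control replicate 2 (−0.052, with leave-one-out values up to 0.62), PCDH19 without control replicate 2 (−0.028, up to 0.556), and PCDH17 above 0 by limma on log2(RPKM + 0.1) (0.036). The cause of these turns was not tested. The labels do not say whether the replicate numbers pair the samples. Deviations of same-numbered libraries correlated at −0.04, 0.06 and 0.001, and not every library correlated best with its own number. With 3 libraries per group these values cannot decide it. With the replicate block 13 members were called, all higher, where 6.21% of all genes were, 9 of them among the 11, and CLSTN2 and PCDH9 were not. Depth limits the 53 untested members, of which the highest had 18 counts in a library, and CDH8 and CDH15, with at most 6 counts per library labelled control.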

Other observations

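Cadherin superfamily genes outside the 101 members included the desmosomal cadherins, which tie neighbouring cells to keratin filaments. Of 14 such genes 9 were tested, 2 rose and 0 fell (edgeR, with 1 lower at an unadjusted p under 0.05 and 0 by DESeq2), with a median log2 fold change of 0.12. By edgeR 9.29% of all tested genes rose and 14.7% fell. The desmocollin DSC3 stood at 20.69, 21.42 and 20.65 RPKM in the libraries labelled knockdown against 14.26, 12.48 and 15.30 in those labelled control (0.40 ± 0.10, adjusted p = 0.0303, edgeR), and RET is given above. The desmoglein DSG2, named after its values were seen as the most abundant of these genes, stood at 37.21, 36.96 and 37.33 RPKM against 38.63, 19.14 and 45.73 (−0.03 ± 0.23, adjusted p = 0.939). DSG1, DSG3 and DSG4 had at most 1 count in a library.

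Among marker genes of other cell types, the adhesion molecule EPCAM of epithelium fell (38.40, 40.66 and 39.33 RPKM against 96.69, 48.10 and 63.78, log2 fold change −0.97 ± 0.20, adjusted p = 0.0168, edgeR), the 1 of 5 tested epithelial markers that was called. Of 5 tested fibroblast markers the collagen gene COL1A2 had 159, 139 and 177 counts against 0, 0 and 0. LUM fell (16, 26 and 18 counts against 20, 43 and 49, −1.62 ± 0.44, adjusted p = 0.0364, edgeR). LUM lost its call by library total alone (adjusted p = 0.051, edgeR) and with composition and length trends removed (−0.85, adjusted p = 0.203). The fibroblast markers had a summed level of 46.7 to 51.7 CPM against 13.3 to 55.1. The neuronal marker GAD1 fell (−0.96 ± 0.12, adjusted p = 0.00303), the 1 of 3 tested. Of 3 tested endothelial markers 0 were called by edgeR, with 1 higher at an unadjusted p under 0.05 and 1 by DESeq2, and their summed level was 4.63 to 5.32 CPM against 1.53 to 3.47. Of the 7 HEK293 markers 0 were called by edgeR, with 2 higher and 3 lower at an unadjusted p under 0.05 and 1 in each direction by DESeq2. The part of other cells in the levels of the cadherins was not tested.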
